A study of Mustela putorius furo with 10 samples.

Results

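Sirtuins are enzymes that remove acetyl and other acyl groups from proteins and use up NAD+ in doing so, which ties their activity to the energy state of the cell. SIRT1, SIRT6 and SIRT7 are mostly nuclear, SIRT2 is mostly cytoplasmic, and SIRT3, SIRT4 and SIRT5 lie in mitochondria. In blood cells SIRT1 is known for restraining inflammatory transcription, and SIRT2 is known as a tubulin deacetylase. The family was taken here as the 7 symbols SIRT1 to SIRT7. Of these, 4 were matched to the array, through 5 of its 45328 target sequences. SIRT2, SIRT4 and SIRT6 were matched through the RefSeq ferret gene table. SIRT1 was matched only because the study's own tables pair its symbol with the target sequence XM_004777825. SIRT3, SIRT5 and SIRT7 found no match by either route and were not analysed here.

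The animals were male ferrets aged 3 months, with free access to food and water. The control group (6 arrays) was kept at 22 °C and the cold group (4 arrays) at 4 °C for 1 week, housed singly. Peripheral blood mononuclear cells (PBMC) were separated from heart blood on a Ficoll gradient, and each array held the Cy3-labelled RNA of 1 ferret against a Cy5-labelled pool of ferret RNA from several tissues, which was the same on every array. Groups of 7 animals are given in the labels, so these arrays cover part of each group. All values below are log2 ratios of PBMC (Cy3) to pool (Cy5) after background correction and loess normalisation, unless another scale is named. Loess sets 0 to the typical gene of the same brightness on each array, so 0 is not equality with the pool and only differences between arrays are read. In bulk RNA such as this, fewer cells of a type and less RNA per cell cannot be told apart.

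Over the whole array, Cy3 spots were well above background for 50.4 to 63.5% of the spots in control and for 58.0 to 61.1% in cold. For the pool the share was 27.0 to 54.9% in control and 40.5 to 64.0% in cold, and cold array 1 was the 1 array where it was above that of Cy3. Of 26292 genes tested with limma, 0 passed the adjusted threshold of 0.05, 6494 (24.7%) had an unadjusted p under 0.05, and the methods' t-test with Benjamini-Hochberg adjustment also called 0. Of the 26292, 9289 carry a symbol, and the rest are target sequences with no symbol, each counted as a gene. Shares of all genes below are over this mix. The lowest adjusted p of any gene was 0.0582. Of the marker lists, 10 of 11 T cell markers, 6 of 8 B cell markers and 6 of 8 monocyte markers were matched to the array, passed the filter on dim probes and were tested. So were 7 of 12 neutrophil, 6 of 8 platelet and 4 of 9 red cell markers, so these counts cannot check the PBMC label. The 7 tested neutrophil markers, of a cell that a Ficoll gradient is meant to leave behind, had a mean log2 ratio of 0.51 to 1.22 in control and 1.52 to 1.94 in cold.

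Detection split the matched sirtuins clearly. SIRT2 was well above background in PBMC on all 48 control spots and all 32 cold spots of either target sequence (XM_004776217 and XM_004776218), and in the pool on all of them too. SIRT1 was well above background in PBMC on 72 of 72 control spots and 48 of 48 cold spots. SIRT6, a chromatin deacetylase with a known part in DNA repair and glycolytic gene control, had the same counts, 72 of 72 and 48 of 48, for XM_004771427. For both of these genes the pool was the weaker side of the ratio. SIRT1 was well above background in Cy5 on 31 of 72 control spots and 44 of 48 cold spots, and SIRT6 on 33 and 44.

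SIRT4, a mitochondrial sirtuin that restrains glutamine use, was well above background in PBMC on 3 of 48 control spots and 1 of 32 cold spots (XM_004753361), and in the pool on 0 of 80. Its Cy3 spot intensity was 110.7 to 127.3 in control and 102.1 to 118.1 in cold. None of its 4 probes passed the filter on dim probes, so it has no fold change. No sirtuin spot was saturated, while 4 spots of SIRT1 and 7 of SIRT6 carried an outlier flag.

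**Figure D1:**
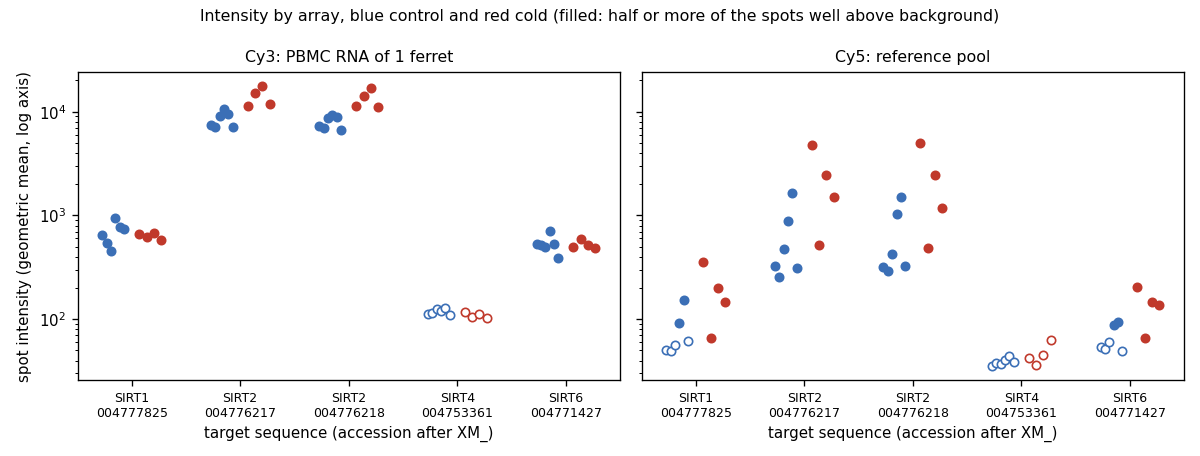
Spot intensity before background correction (log axis; geometric mean over the spots of a target sequence) on the 6 control arrays (blue) and 4 cold arrays (red), with PBMC RNA on the left and the pool on the right; filled points mark arrays where at least 50% of the spots were well above background. SIRT2 was well above background everywhere in both channels, SIRT4 in neither, and SIRT1 and SIRT6 fell below that share in the pool on control arrays only.

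SIRT2 had the largest change of the 3 tested sirtuins on the loess ratio and with Cy3 alone, while SIRT1 had the larger one with processed intensities, median centring and the deposited table (values below). On the control arrays it was at -0.16, -0.16, 0.12, -0.30, 0.01 and -0.34, and on the cold arrays at 0.10, 0.32, 0.61 and 0.31. The groups overlapped only in that cold array 1 lay just under control array 3. The 6 control arrays averaged -0.14 ± 0.18 (SD, n = 6), and the 4 cold arrays 0.33 ± 0.21 (SD, n = 4). The log2 change was 0.47 (SE 0.12), with a 95% confidence interval from 0.21 to 0.73, or 38.5% on the linear scale.

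This difference was larger than the spread between arrays by the single-gene tests but not after adjustment over all genes. The limma p for SIRT2 was 0.00231, its adjusted p was 0.0802, and the exact permutation test over all 210 splits of the arrays (two-sided) gave p = 0.0143. SIRT2 was thus 1 of the 3 tested sirtuins with an unadjusted limma p under 0.01, a threshold that 8.63% of all genes passed in either direction and 5.22% upward. Its change was larger in size than that of 94.4% of the genes tested.

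Both target sequences of SIRT2 were higher in cold. For XM_004776217 the control arrays were at -0.16, -0.05, 0.08, -0.08, -0.01 and -0.28, and the cold arrays at 0.13, 0.30, 0.62 and 0.19. Every cold array was above every control array. The groups did not overlap, in either direction, for 5.10% of all target sequences. The change was 0.39 (SE 0.11, limma adjusted p = 0.0923 over 32400 sequences), with an exact permutation p of 0.00476, the smallest that these group sizes allow.

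For XM_004776218 the control arrays were at -0.16, -0.26, 0.17, -0.51, 0.03 and -0.40, and the cold arrays at 0.06, 0.34, 0.59 and 0.43. Here cold array 1 lay within the control range. The change was 0.55 (SE 0.15), with a limma adjusted p of 0.0875. Both sequences had an unadjusted p under 0.01, as had 8.59% of all sequences. Without cold array 3 neither was under it, with limma p of 0.01163 for XM_004776217 and 0.01325 for XM_004776218. Without cold array 4 the limma p of XM_004776218 was 0.01048. Both sequences are of 1 gene on the same arrays and are not independent measurements. They did not differ in direction on any probe, since all 8 probes were higher in cold, by 0.25 to 0.52 for the first sequence and by 0.31 to 0.91 for the second.

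**Figure D2:**
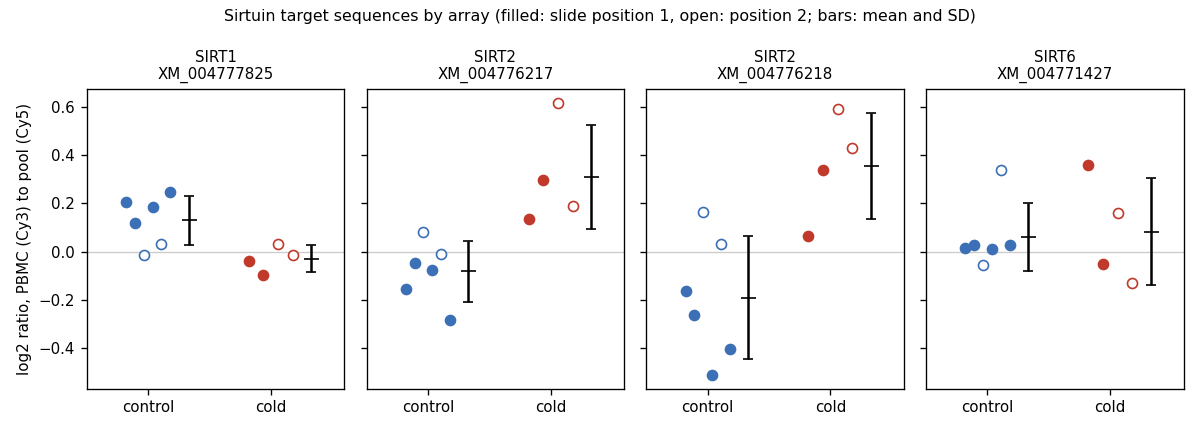
Log2 ratio of PBMC to pool for the 4 detected sirtuin target sequences, 1 point per array, with the mean and SD of 6 control and 4 cold arrays beside the points; filled points mark arrays at slide position 1 and open points position 2. The cold arrays of SIRT2 XM_004776217 (0.13 to 0.62) sit above all control arrays, those of SIRT1 (-0.10 to 0.03) sit in the lower part of the control range or under it, and those of SIRT6 (-0.13 to 0.36) span the control arrays.

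The same pattern was seen without the pool. With Cy3 alone, quantile-normalised between arrays, SIRT2 had a log2 intensity of 12.98 to 13.32 in control and 13.37 to 13.72 in cold, and the groups did not overlap, as for 7.01% of genes. That change was 0.38 (SE 0.10, limma adjusted p = 0.0628), in a comparison where 9.85% of genes had an unadjusted p under 0.01 and 2.81% an adjusted p under 0.05. In the Cy5 channel alone, where the same pool was hybridised to every array, the SIRT2 difference was -0.06 (SE 0.06, limma adjusted p = 0.729), where 1.80% of genes had an unadjusted p under 0.01.

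The direction of SIRT2 was not the same under every normalisation. With each array's log ratios only centred on their median, SIRT2 was at -0.53 (SE 0.48, limma adjusted p = 0.403) where all genes had a median of -0.43. In the table of log2 values that the authors deposited, it was at 0.02 (SE 0.29, limma adjusted p = 0.967), in a comparison where 4.13% of genes had an unadjusted p under 0.01. At SIRT2 the median-centred ratio lay above the loess ratio by 1.48 to 3.30 log2 units on control arrays and by 0.64 to 2.86 on cold arrays, with overlapping ranges. Why the settings differ was not tested. The scanner software's own processed intensities gave 0.42 (SE 0.14, limma adjusted p = 0.178), with no overlap between groups, as for 4.61% of genes.

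SIRT1, the best studied member and a deacetylase of p53, NF-kB and PGC-1alpha, was lower in cold by a small amount that did not pass the test. It was at 0.21, 0.12, -0.01, 0.19, 0.03 and 0.25 on the control arrays and at -0.04, -0.10, 0.03 and -0.01 on the cold arrays. Control arrays 3 and 5 lay within the cold range and the other 4 control arrays lay above it. Control averaged 0.13 ± 0.10 (SD, n = 6), against -0.03 ± 0.05 (SD, n = 4) for the cold arrays.

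The log2 change of SIRT1 was -0.16 (SE 0.08), with a 95% confidence interval from -0.33 to 0.01. The limma p was 0.0595 (adjusted p = 0.220), while the exact permutation test (two-sided) gave p = 0.0286. SIRT1 was among the least variable genes: its SD within groups, 0.0881, was undercut by 6.12% of genes, and limma, which shares the spread across genes, worked with a larger error for it than its own arrays show. An unadjusted p under 0.01 with a lower value in cold was found for 3.42% of genes, and SIRT1 was not among them on the loess ratio; 52.0% of genes had a lower mean in cold. All 4 probes were lower in cold, by values from -0.17 to -0.13.

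The size of the SIRT1 difference varied with the processing and its direction did not. It was -0.65 (limma adjusted p = 0.157, no overlap between groups, as for the same 4.61% of genes) with the scanner software's processed intensities, where its unadjusted p was under 0.01, and -0.64 with median centring, where all genes had a median of -0.43. It was -0.28 in the deposited values, with a limma p of 0.0885 and, by the methods' t-test on those values, an unadjusted p of 0.00605 and a Benjamini-Hochberg adjusted p of 0.318 over all genes. With Cy3 alone it was -0.20 (SE 0.12, limma adjusted p = 0.316). In the Cy5 channel alone, SIRT1 was 0.12 higher on cold arrays (SE 0.07, limma adjusted p = 0.610), on the side of the ratio where fewer control spots were above background; its part in the ratio was not tested.

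Each of the 2 positions of an array on the slide held both groups. At position 1 the SIRT1 change was -0.26 (4 control and 2 cold arrays), and at position 2 the group means were both 0.01 (2 arrays each). Whether the SIRT1 change differs between positions was not tested. For SIRT2 the change was 0.45 at position 1 and 0.39 at position 2. For SIRT6 it was 0.13 at position 1 and -0.13 at position 2, and this contrast was not tested either. With position as a block the SIRT1 change was -0.15 (SE 0.08) and the SIRT2 change 0.42 (SE 0.09, limma adjusted p = 0.0673).

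**Figure D3:**
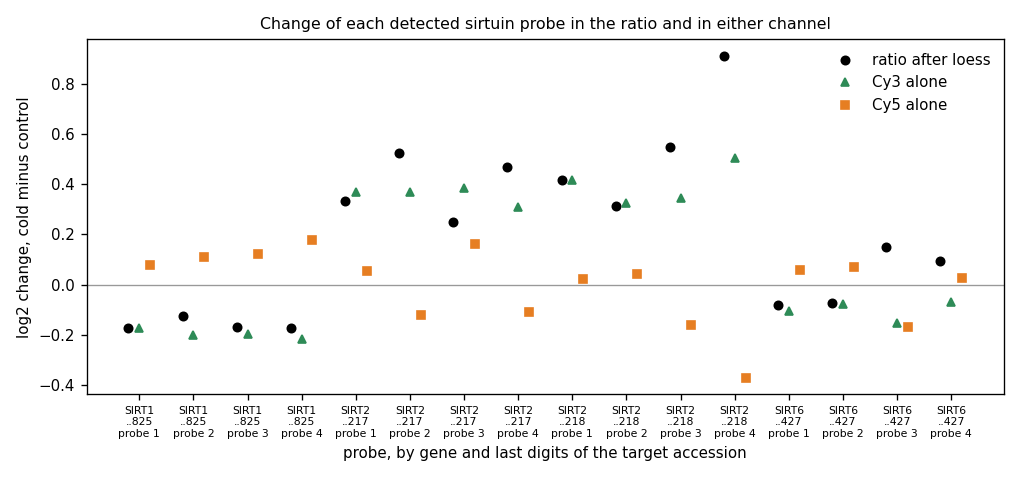
Log2 change, cold minus control, of each of the 16 probes of SIRT1, SIRT2 and SIRT6 that passed the filter, as the loess ratio (circles), in Cy3 alone (triangles) and in Cy5 alone (squares). The 8 probes of SIRT2 were higher in cold in the ratio and in Cy3 alone and split 4 to 4 in Cy5 alone, and the 4 probes of SIRT1 were lower in the ratio and in Cy3 alone and higher in Cy5 alone.

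SIRT6 showed no detectable difference. It was at 0.01, 0.03, -0.06, 0.01, 0.34 and 0.03 on the control arrays and at 0.36, -0.05, 0.16 and -0.13 on the cold arrays. The control arrays all lay within the range of the cold arrays, and control array 5 stood apart from the other control arrays. The log2 change was 0.02 (SE 0.11), with a 95% confidence interval from -0.22 to 0.27 and a limma adjusted p of 0.924. SIRT6 was at -0.12 with processed intensities and at -0.10 with Cy3 alone, where all genes had medians of -0.10 and -0.04. With median centring it was at -0.34, which is 0.08 above the median of all genes. Of its 4 probes 2 were lower and 2 higher on the loess ratio.

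**Figure D4:**
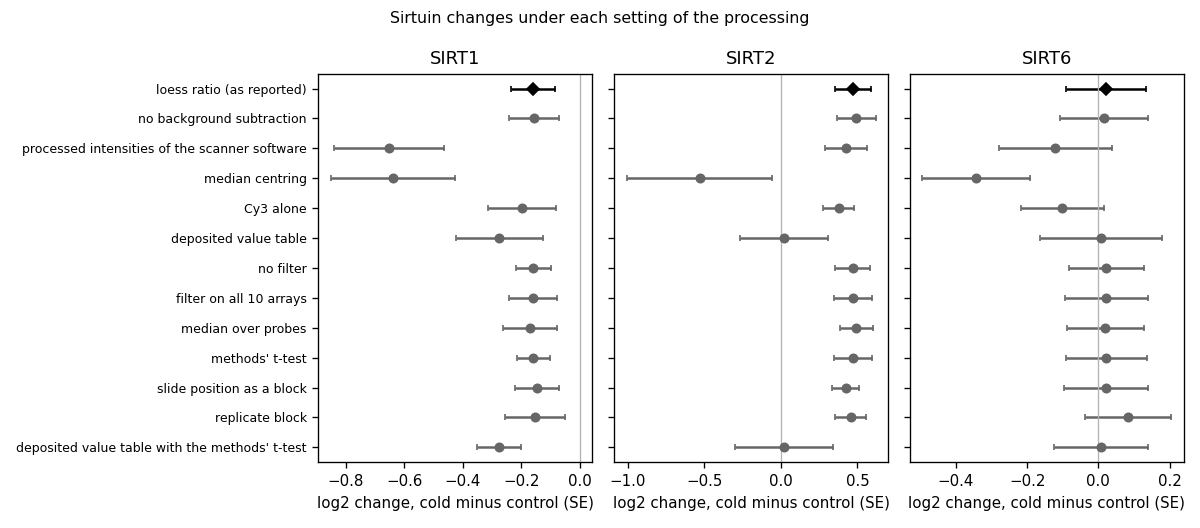
Log2 change of SIRT1, SIRT2 and SIRT6, cold minus control, with its SE, under the reported processing (diamond) and 12 other settings (circles), on separate horizontal scales. SIRT1 was below 0 under all of them, SIRT2 was above 0 except at -0.53 with median centring and was close to 0 (0.02) in the deposited table, and SIRT6 lay on either side of 0.

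Markers of other blood cells moved between the groups beside these values. Of the neutrophil markers 7 of 7 tested were higher in cold and the groups' mean levels did not overlap. MPO, S100A9 and S100A8 had unadjusted limma p under 0.01, with changes of 1.41, 1.15 and 1.11, beside 8.63% of all genes under that threshold. CXCR2 (0.82), S100A12 (0.81), CSF3R (0.40) and MMP9 (0.19) were higher but not under that threshold. Whether the RNA of these genes came from neutrophils was not tested. Platelet markers were higher on 6 of 6 genes, of which GP9, TREML1 and GP1BB were under it, at -0.07 to 1.29 in control and 0.82 to 1.77 in cold. Monocyte markers were higher on 5 of 6, with VCAN and CD14 under it, at -0.03 to 0.52 and 0.42 to 1.10.

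T cell markers were lower on 9 of 10 genes, with LCK (-0.75) under the same threshold, at -0.03 to 0.28 in control and -0.72 to -0.01 in cold. Red cell markers were lower on 4 of 4, with HBM (-2.57) under it, at 0.18 to 1.12 and -0.85 to -0.05, without overlap. B cell markers were lower on 6 of 6 and markers of NK and cytotoxic cells higher on 4 of 4, both with overlapping ranges. In the list of NK and cytotoxic cells, the NK receptor genes KLRB1, KLRD1 and NCR1 were not tested. In the deposited table the median change was 0.48 for neutrophil, 0.75 for platelet, 0.03 for monocyte, -0.89 for T cell, -0.46 for B cell and -1.42 for red cell markers, against 0.82, 0.87, 0.54, -0.41, -0.09 and -0.74 on the loess ratio. With Cy3 alone, 9.85% of all genes had an unadjusted p under 0.01. Under it were 7 of the 10 T cell markers and 2 of the 4 red cell markers, all lower in cold. Higher in cold and under it were 4 of the 7 neutrophil and 3 of the 6 monocyte markers, with 0 of the 6 platelet markers. Past the adjusted threshold were 2 neutrophil markers and 1 red cell marker. The B cell median was -0.58, and that of NK and cytotoxic cells was -0.10 against 0.09 on the loess ratio. With median centring CD14 was at -0.37 and S100A8 at -0.01. The part of any of these shifts in the SIRT1 and SIRT2 values was not tested.

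The genes around the sirtuins were read from 7 lists, which hold 83 distinct tested genes. Of these, 45 were lower and 38 higher in cold, and 1 (1.20%) had an unadjusted limma p under 0.01, against 8.63% of all genes. With Cy3 alone, 5 of the 83 (6.02%) were under that threshold, against 9.85% of all genes, namely HDAC7, HDAC4, ATG7, NFE2L2 and PPARGC1B, which are named here for those values. In the deposited values only PARP11 was, against 4.13% of all genes. On the loess ratio, the groups did not overlap for 1 of the 83, against 5.21% of all genes (2.15% with the cold arrays lower). That gene was TFAM, the mitochondrial DNA packaging factor, with a change of -0.25 (limma adjusted p = 0.129); it was singled out after its values were seen.

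In the list of NAD supply, which holds enzymes that make or convert NAD+ and transporters, 8 of 22 listed genes were tested, with 5 lower and 3 higher and a median change of -0.05, beside -0.01 for all genes. The lowest p was that of NADK2, the mitochondrial NAD kinase, at -0.32 (limma adjusted p = 0.190). In the list of other enzymes that consume NAD+, 12 of 23 were tested, 8 lower and 4 higher, with a median of -0.05. That list also holds PARG, ADPRS and MACROD1, which remove ADP-ribose and do not consume NAD+. BST1, an ectoenzyme that makes cyclic ADP-ribose, had the lowest p there, at 0.65 (limma adjusted p = 0.164). The zinc-dependent histone deacetylases, which remove acetyl groups without NAD+, had 3 lower and 5 higher of 8 tested, with HDAC7 at -0.42 (limma adjusted p = 0.191).

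Known regulators of SIRT1 were lower for 4 and higher for 3 of 7 tested, with a median of -0.12. HIC1, a repressor of SIRT1 transcription, had the lowest p, at -0.54 (limma adjusted p = 0.154). Deacetylation targets of the nuclear sirtuins were split, 10 lower and 12 higher of 22, and KAT5, an acetyltransferase that SIRT1 deacetylates, was at 0.35 (limma adjusted p = 0.131). Targets of the mitochondrial sirtuins were split as well, 11 lower and 9 higher of 20, with a median change of -0.01.

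Chromatin and ribosomal gene factors that work with SIRT6 and SIRT7 were lower for 5 and higher for 2 of 7 tested. MYBBP1A, a nucleolar protein bound by SIRT7, was the 1 gene of these lists under an unadjusted p of 0.01, at -0.32 (limma adjusted p = 0.112), on the loess ratio. It was not under that p with Cy3 alone (-0.23) or in the deposited table (-0.80), nor in at least 1 of the fits that leave out an array. None of these lists had a member past the adjusted threshold on the loess ratio.

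**Figure D5:**
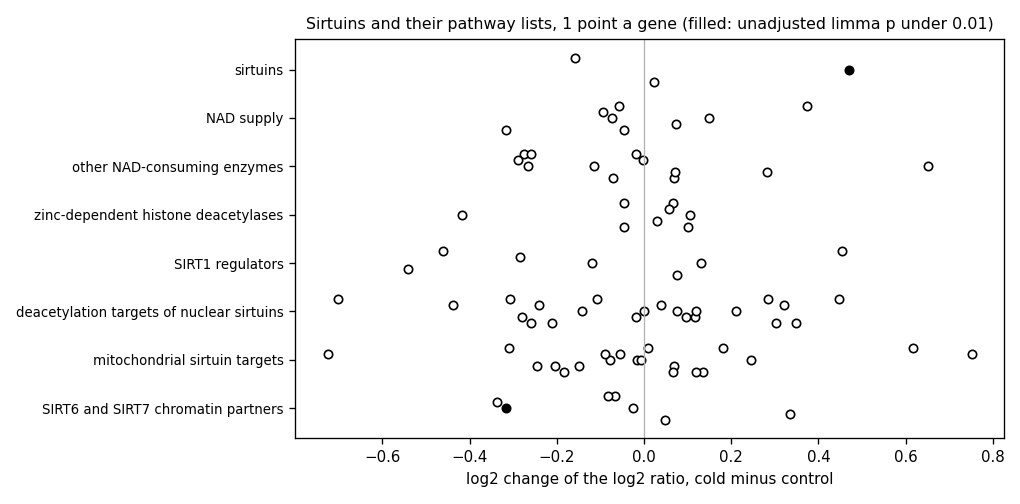
Log2 change, cold minus control, of the 3 tested sirtuins and of the genes in 7 lists of their substrates, suppliers, regulators and relatives, 1 point per gene; filled points have an unadjusted limma p under 0.01. SIRT2 (0.47) and MYBBP1A (-0.32) are the filled points, and each list spreads on both sides of 0.

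The genes whose pattern over the 10 arrays was most like that of SIRT1 were named by the smallest root mean square difference of the centred log2 ratios, among 8350 candidate genes. They were RNF168 (0.0563), PPP2R5E (0.0588), COG6 (0.0599), ZNF527 (0.0610) and AP1AR (0.0642), beside a median of 0.220 over all candidates and a root mean square of 0.111 for SIRT1 about its own mean. This likeness is a description over 10 arrays. Since the arrays that set the likeness include both groups, the direction of these genes in cold is fixed by the choice.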

How the data were processed

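The authors deposited, for each of 10 arrays, Agilent Feature Extraction 10.7.3.1 intensities (median spot brightness and local background in Cy3 and Cy5), processed intensities and flags, which count as other values, and a further table that gives each target sequence a log2 value per array. Against the scanner intensities, the deposited log2 table equals averaged log2 Cy3 minus averaged log2 Cy5 intensity, with no background subtracted, up to a constant per array and per sequence whose origin is unknown. Columns of that table had medians from 7.87 to 8.78.

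In limma 3.58.1 under R 4.3.3, intensities were corrected by normexp (offset 50), control spots left out, and log2 ratios of Cy3 to Cy5 normalised by loess (span 0.3, 4 iterations). The planned mean signal was replaced by the median signal of the files. Outlier spots were dropped, and spots, then probes of a gene, averaged. Probes were kept if, on 4 or more arrays, a share of 0.5 or more of their spots had a Cy3 signal well above background, leaving 111051 probes of 26292 genes; 2 genes with a missing value were left out. Of 45328 target sequences, 21104 were named through RefSeq (assembly ASM1176430v1.1), 24 through the study's tables and 24200 not at all. Each target sequence with no symbol was treated as a gene of its own. No coordinates or sequences are given. All 10 arrays lay on separate slides scanned on 1 day. Replicates are separate animals.

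Groups were compared by lmFit and eBayes; p-values were adjusted by Benjamini-Hochberg across every gene tested (threshold 0.05), beside the methods' unadjusted threshold of 0.01, and single genes by exact permutation over 210 splits (two-sided, smallest p 0.00476). The test was checked on simulated data. The number of arrays limits the precision. Members, lists and tests were chosen with earlier results of these data known. Named genes were all sirtuins, per list up to 4 members with an unadjusted p under 0.01 or else the one with the lowest p, and the 5 genes most like SIRT1. The values of 1 gene that this rule names are not reported here. Marker lists were read as the mean log2 ratio of their tested members. Alternatives were no background subtraction, processed intensities, median centring, Cy3 alone, the deposited table, no filter, the median over probes, a dim-probe filter on all 10 arrays, the methods' t-test, slide position or replicate number as a block, and leaving out each array. The methods' t-test on the deposited table was added after seeing the data.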

Additional observations from a re-analysis of the deposited data

Results flagged for a closer look

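SIRT6 on control array 5 was at a log2 ratio of 0.34, while the next highest control array was at 0.03 and the lowest at -0.06. The gap was 0.784 of the range of the 6 control arrays, for the gene and likewise for its single target sequence XM_004771427, which gives the same value. Chance flags about 1 in 20 groups in this way.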

How the results depend on the processing

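SIRT1 was lower in cold under every setting, from -0.65 to -0.15, with leave-one-out changes from -0.19 to -0.14. Of these settings, both filters and the methods' t-test leave the change as it is by construction, and the deposited table enters with both tests. As a gene, SIRT2 ranged from 0.38 to 0.55 when an array was left out, with an unadjusted limma p under 0.01 each time and an adjusted p from 0.0544 to 0.197. Its single target sequences did not stay under 0.01 each time. Median centring turned SIRT2 to -0.53, its target sequences XM_004776217 to -0.61 and XM_004776218 to -0.46, and SIRT6 and its sequence to -0.34. Under that setting all genes had a median of -0.43, and relative to it SIRT1 was at -0.21, SIRT2 at -0.11 and SIRT6 at 0.08, so SIRT6 did not turn against the typical gene. The deposited table turned XM_004776217 to -0.059 and gave 0.02 for SIRT2. SIRT6 turned to -0.12 with processed intensities and to -0.10 with Cy3 alone, and ranged from -0.069 to 0.094 when an array was left out, negative without control array 3, cold array 1 or cold array 3. The cause of these turns was not tested.

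Genes past the adjusted threshold numbered 0 as reported, 738 with Cy3 alone, 106 with the filter on all 10 arrays, 5 with slide position as a block, and 0 to 1261 when an array was left out (1261 without cold array 2, 469 without control array 5, 12 without cold array 1). Genes at an unadjusted p under 0.01 numbered 2270 as reported, 1498 with processed intensities, 1158 with median centring, 1085 in the deposited table and 1272 to 3379 when an array was left out (1272 without cold array 3, 1420 without control array 1, 1499 without control array 2). Of genes at that threshold, 39.6% were lower in cold as reported and 81.5% with median centring.

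The deviations of same-numbered control and cold arrays from their group means correlated at -0.30, 0.54, 0.10 and -0.19, of mixed sign, and no array correlated best with its own number. With the replicate number as a block, SIRT1 was at -0.15, SIRT2 at 0.46 (adjusted p = 0.0840) and SIRT6 at 0.08, and 2452 genes had an unadjusted p under 0.01. Signal over background limits SIRT4 in both channels, and SIRT1 and SIRT6 in the pool on control arrays.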
